A study of Mus musculus with 6 samples.

Results

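The genes described here are 33 genes of fatty acid oxidation and of the peroxisome proliferator-activated receptors (PPARs), chosen by name from 34866 gene rows of a counts table. They comprise 25 enzymes and carriers of fatty acid oxidation, the 3 PPARs, the coactivator Ppargc1a and 4 lipid-binding or PPAR target genes. All 33 were found in the table and all passed the filter on low counts, among 14017 genes tested. The libraries were bulk RNA-seq of mucosa from the antrum, the distal part of the mouse stomach, with 3 from wild type mice (Muc6 +/+) and 3 from knockout mice (Muc6 -/-). Muc6 encodes a gel-forming mucin of the gastric glands, and the labels give its loss in the whole animal, with no promoter or cell type named and with no age or strain. The study asks how Muc6 is related to gastric carcinogenesis.

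Fatty acids enter mitochondria as acylcarnitines through the carnitine shuttle and are then shortened in repeated cycles of dehydrogenation, hydration, a second dehydrogenation and thiolysis, which yield acetyl-CoA. Unsaturated chains need additional isomerases and a reductase, and very long or branched chains start in peroxisomes. The acyl-CoA dehydrogenases hand their electrons to the electron transfer flavoprotein, which feeds the respiratory chain. PPARs are nuclear receptors that bind fatty acids and pair with retinoid X receptors, and many genes of this pathway are known targets of PPAR alpha in liver and heart. PPAR gamma is best known for adipocyte differentiation and is also present in epithelia of the gut. Parietal cells, the acid-secreting cells of the stomach, are rich in mitochondria.

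Total estimated counts per library were 19839799 to 21354029, so that 1 count was worth 0.0416 to 0.058 CPM (counts per 1e+06 of the library size after composition scaling). Muc6 was at 396, 403 and 510 CPM in wild type 1 to 3, at 0.0425 CPM (1 count) in knockout 1 and at 0 counts in knockouts 2 and 3, which matches the labels. The 4 Y-linked genes measured summed to 5.85 to 6.73 CPM in the wild type and 132 to 139 CPM in the knockout, so sex coincided with genotype in these libraries and the effects of sex and of Muc6 cannot be told apart. Antral markers were present in every library, but 6 of the 10 fell and 3 rose, and their sum was 167349 to 194217 CPM in the wild type and 50306 to 65386 CPM in the knockout, 32.5% of it by the means. Gkn2, Gkn1 and Tff1 were the most abundant, and gastrin (Gast) was at 762 to 1196 CPM in the wild type and 9.52 to 24.8 CPM in the knockout. The part of this shift in the results below was not tested. The second principal component, with 19.9% of the variance, set wild type 1 (67.7) and knockout 1 (45.9) apart from the other 4 libraries (-47.4 to -19.4). Nothing in the labels says that the libraries came from separate animals, so a p-value here reflects the spread among libraries, which may be technical. In bulk tissue fewer cells of a type and less RNA per cell cannot be told apart.

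Stretches upstream of annotated starts of 4 genes are shown because they belong to results below. Hadha and Hadhb, the subunits of the mitochondrial trifunctional protein, lie head to head on chromosome 5, with annotated starts 86 bp apart, and changed by unequal amounts. Etfdh and Pdk4 were among the members with the lowest adjusted p-values. The sequences are from RefSeq (build GRCm38.p6, the mm10 build of the files), read 5′ to 3′ and trimmed to bases outside protein-coding transcripts' exons. The shared stretch chr5:30155163-30155247 is given on the plus strand, on which Hadhb lies (Hadha is on the minus strand). Etfdh (chr3:79628864-79629017) and Pdk4 (chr6:5496310-5496528) are given on the minus strand, which is the strand of each gene. The Etfdh stretch precedes a RefSeq start at 79628768. It lies inside the gene as annotated in GENCODE M21, which reaches to 79629500. Capitals mark a match to the motif of NRF1, a regulator of nuclear genes for mitochondrial proteins.
Hadha and Hadhb: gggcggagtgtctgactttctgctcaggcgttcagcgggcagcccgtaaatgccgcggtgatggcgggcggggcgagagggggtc
Etfdh: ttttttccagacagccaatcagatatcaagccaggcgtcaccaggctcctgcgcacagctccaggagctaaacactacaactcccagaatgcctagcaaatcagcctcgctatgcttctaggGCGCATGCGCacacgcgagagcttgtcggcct
Pdk4: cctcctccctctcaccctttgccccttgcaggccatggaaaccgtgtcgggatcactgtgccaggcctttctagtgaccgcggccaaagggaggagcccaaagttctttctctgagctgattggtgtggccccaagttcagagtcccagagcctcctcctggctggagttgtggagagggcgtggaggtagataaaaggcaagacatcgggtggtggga

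Motifs, 5 in all, were searched on both strands of windows from 250 bases before to 50 bases after each RefSeq start, in 32851 promoters in all, of which 28 belonged to 26 of the 33 members. The PPAR element AGGTCANAGGTCA was in 0.0396% of all promoters (13 of 32851) and in 0 of the 28. At so low a share a match among 28 promoters was hardly to be seen, so its absence says little. The single nuclear receptor hexamer AGGTCA, which is contained in that element and in the ERR element, was in 16.3% of all promoters and in 6 of the 28 (21.4%), those of Acadm, Acadvl, Cpt1a, Echs1 and both listed starts of Pparg. The ERR element TCAAGGTCA, for the estrogen-related receptors, was in 0.423% of all and in 0 of the 28. The ETS element CCGGAAGT was in 3.89% of all and in 2 of the 28 (7.14%), those of Cpt2 and Slc25a20, and the NRF1 element GCGCATGCG in 1.75% of all and in 3 of the 28 (10.7%), those of Acadm, Etfdh and Ppara. In the Etfdh stretch it matched on both strands at overlapping positions. The stretches shown for Hadha and Hadhb and for Pdk4 held none of the 5. A match describes exact letters in this window. Inexact matches and enhancers farther away were not searched.

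Most of the members that passed the test were lower in the knockout. Of the 33, 17 fell and 1 rose, the lipid droplet gene Cidea, while 15 did not pass (edgeR's quasi-likelihood test with Benjamini-Hochberg adjustment over all genes tested, threshold 0.05). Of all genes tested, 38.4% passed in either direction, 19.2% being lower and 19.3% higher in the knockout, so the share of members that fell, 51.5%, was above that of all genes. The median log2 change (knockout minus wild type) was -0.54 over the members and 0.02 over all genes. In 21 members every knockout library lay below every wild type library, against 26.6% of all genes, and in 1 member every knockout library lay above, against 28.2% of all genes. The 25 enzymes and carriers summed to 3568, 3166 and 3045 CPM in wild type 1 to 3 and to 2016, 1961 and 2208 CPM in knockouts 1 to 3. The knockout mean was thus 63.3% of the wild type mean. Over all genes tested this share was 74.9%, since composition scaling lowers the summed CPM of the knockout. Other summed shares given here stand beside that value too. With total counts as library sizes, which move the median of all genes to 0.43, 11 members fell and 3 rose. Then 33.3% of members and 7.78% of all genes were lower. The members' median less that of all genes was -0.56 with both scalings. It could hardly differ, because new library sizes shift the log2 change of every gene by nearly the same amount.

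**Figure D1:**
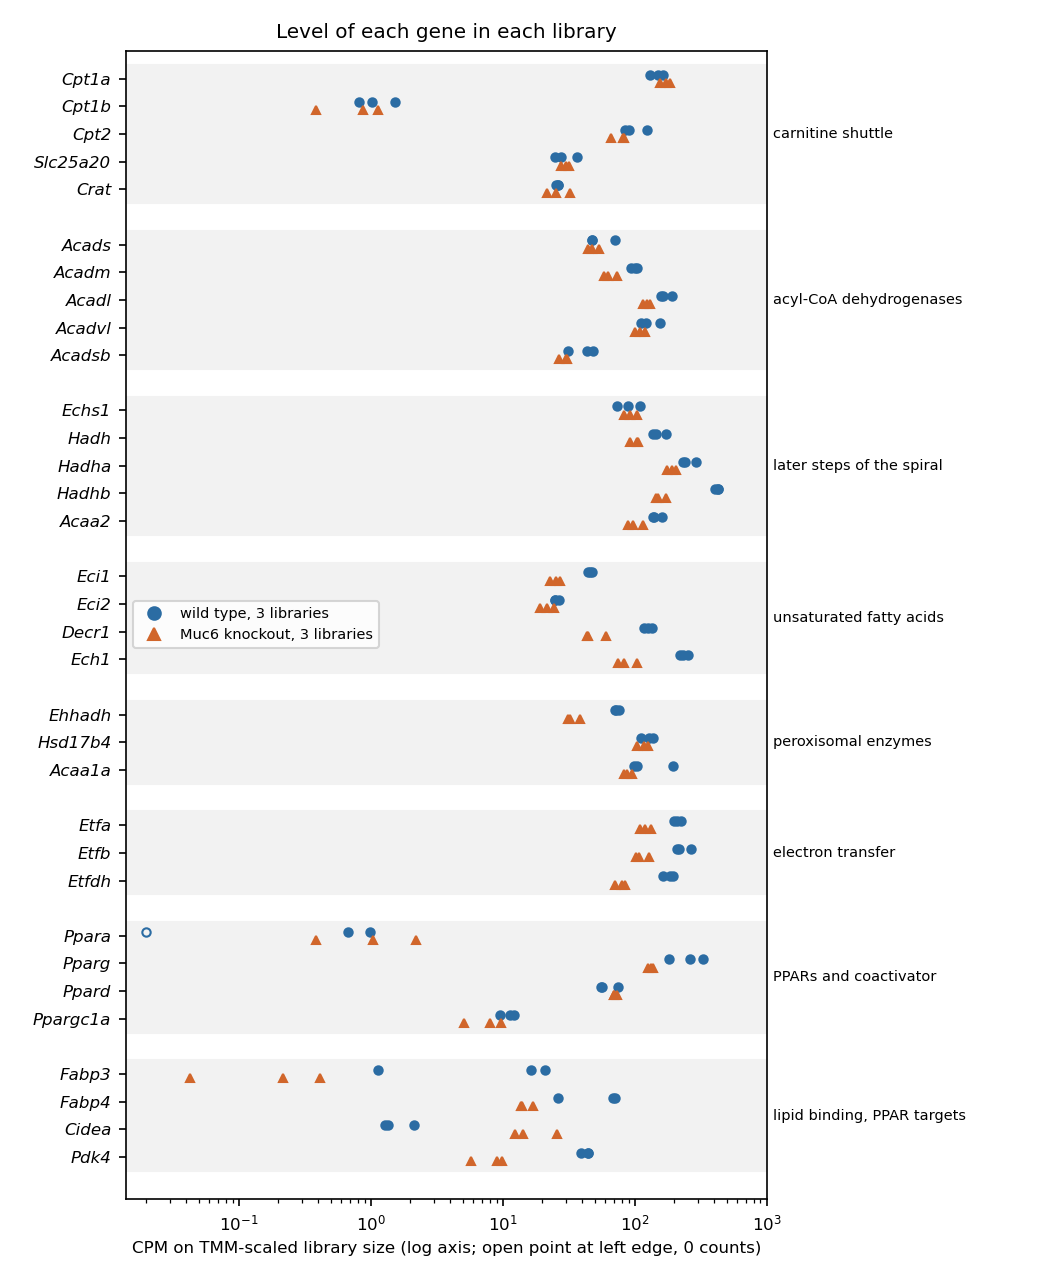
Levels of the 33 members in each library, in CPM on a log axis with 1 row per gene, grouped by role, with wild type and knockout libraries as separate points. The knockout points lie to the left of all wild type points in 21 rows and to the right of them in 1, that of Cidea.

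Per kilobase of exon, the electron transfer flavoprotein genes Etfb and Etfa were the most abundant members in wild type, and the genes of PPAR alpha and of the muscle-type carnitine transferase the least abundant. The length is the union of all annotated exons, 1164 bp for Etfb and 6595 bp for Hadhb, and may exceed that of the transcripts present. By CPM alone Hadhb was the highest in wild type, at 420 against 231 for Etfb. The order and the per-kilobase ratios of genes below depend on these lengths, while changes of a ratio between genotypes do not. In wild type the highest level was that of Etfb, 199 ± 27.8 CPM per kb (SD, n = 3), followed by Etfa at 115 ± 7.49, Ech1 at 103 ± 7.04, Acaa2 at 97.0 ± 8.66 and Pparg at 87.9 ± 24.9. From Etfa to Pparg, neighbours in this order differed by less than the sum of their SDs. Cpt1b (0.332 ± 0.107) and Ppara (0.144 ± 0.131) were the lowest. In the knockout Etfb was again first, at 97.3 ± 12.2 CPM per kb, and Ech1 stood in place 7 at 38.3 ± 6.56. Cidea stood in place 31 in wild type, at 1.43 ± 0.426 CPM per kb, and in place 17 in the knockout, at 15.7 ± 6.43.

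None of the 5 genes of the carnitine shuttle passed the test. Their summed level in the knockout was 100.2% of that in wild type, against 74.9% over all genes tested. Cpt1a, the liver-type carnitine palmitoyltransferase of the outer membrane and the regulated entry step, was at 164, 150 and 132 CPM in wild type 1 to 3 and 184, 175 and 156 CPM in knockouts 1 to 3, a log2 change of 0.21 ± 0.12 (SE, adjusted p = 0.211). With total counts as library sizes it rose by 0.62 (adjusted p = 0.00445). Cpt1b, the muscle-type enzyme, had 9 to 27 counts per library (0.382 to 1.52 CPM), and 81.4% of its exon bases are shared with the gene Gm44502 on the same strand. Cpt2, the transferase of the inner membrane, was at 124, 90.9 and 84.3 CPM in the wild type and 66.4, 83.3 and 81.8 CPM in the knockout, which do not overlap, with a log2 change of -0.37 ± 0.17 (adjusted p = 0.121). The carrier Slc25a20, which exchanges acylcarnitine for carnitine, and the acetyltransferase Crat had log2 changes of 0.01 ± 0.16 and 0.02 ± 0.16, with levels of 25.1 to 36.6 and 21.6 to 32.4 CPM over the 6 libraries.

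Of the 5 acyl-CoA dehydrogenases, which carry out the initial step of each cycle, 2 fell and all 5 had negative estimates. Acadm, the medium-chain enzyme, was at 94.6, 104 and 101 CPM in wild type 1 to 3 and 62.8, 59.1 and 73.7 CPM in knockouts 1 to 3, a log2 change of -0.61 ± 0.11 (adjusted p = 0.00555). Acadl, the long-chain enzyme, was at 192, 165 and 160 CPM in the wild type and 115, 124 and 132 CPM in the knockout, a log2 change of -0.48 ± 0.11 (adjusted p = 0.0145). The groups did not overlap for either gene. Acadsb, which acts on short branched chains, was at 31.2, 43.8 and 48.7 CPM in the wild type and 29.99, 26.6 and 31.0 CPM in the knockout. Its log2 change of -0.50 ± 0.17 did not pass (adjusted p = 0.0558), while without wild type 1, its lowest wild type library, it was -0.67 (adjusted p = 0.00453). The short-chain Acads (-0.19 ± 0.18) and very-long-chain Acadvl (-0.24 ± 0.14) did not pass, and 42.9% of the exon bases of Acadvl are shared with Dvl2 on the opposite strand. The call of Acadm was lost with total counts (adjusted p = 0.186), and that of Acadl also with total counts (adjusted p = 0.690), without knockout 2 (adjusted p = 0.0567) and with the trend over transcript GC content removed (adjusted p = 0.115).

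Of the 5 genes for the later steps of the mitochondrial cycle, 4 fell, and the unlike changes of the trifunctional protein's subunits stood out. Hadhb, the beta subunit with the thiolase activity, was at 407, 428 and 426 CPM in wild type 1 to 3 and 145, 152 and 173 CPM in knockouts 1 to 3. It was 2.69-fold lower in the knockout, a log2 change of -1.43 ± 0.11 (adjusted p = 0.000284), the lowest adjusted p of the 33. Hadha, the alpha subunit with the hydratase and hydroxyacyl dehydrogenase activities, was at 294, 233 and 240 CPM in the wild type and 178, 194 and 205 CPM in the knockout. The groups did not overlap, and its log2 change was -0.41 ± 0.12 (adjusted p = 0.0351). Per kilobase, the ratio of Hadha to Hadhb was 0.545, 0.411 and 0.425 in wild type 1 to 3 and 0.926, 0.964 and 0.898 in knockouts 1 to 3. All 3 knockout ratios were above the wild type ratios, and the exact two-sided permutation test gave p = 0.1, the smallest that 3 against 3 libraries allow. The call of Hadha was lost when any 1 library other than wild type 1 was left out (adjusted p = 0.0508 to 0.102) and without both libraries numbered 1 (adjusted p = 0.0530), and with total counts its estimate was 0.01 (0.0070).

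Hadh, the short-chain hydroxyacyl dehydrogenase, was at 173, 146 and 139 CPM in wild type 1 to 3 and 104, 92.2 and 106 CPM in knockouts 1 to 3, a log2 change of -0.60 ± 0.12 (adjusted p = 0.00764). The thiolase Acaa2 was at 162, 142 and 138 CPM in the wild type and 97.3, 89.2 and 116 CPM in the knockout, a log2 change of -0.54 ± 0.13 (adjusted p = 0.0152). Neither gene's groups overlapped. Echs1, the short-chain enoyl-CoA hydratase, was at 73.3 to 111 CPM over the 6 libraries with overlapping groups and a log2 change of 0.04 ± 0.17. The calls of Hadh (adjusted p = 0.235) and Acaa2 (adjusted p = 0.446) were lost with total counts, and that of Acaa2 also without knockout 2 (adjusted p = 0.0644).

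Of the 4 auxiliary enzymes for unsaturated fatty acids 3 fell, and their summed level in the knockout, 42.5% of that in wild type, was the lowest share of the 6 enzyme groups. Ech1, a dienoyl-CoA isomerase, was at 252, 233 and 221 CPM in wild type 1 to 3 and 82.8, 75.5 and 104 CPM in knockouts 1 to 3, a log2 change of -1.43 ± 0.14 (adjusted p = 0.000631). Decr1, the mitochondrial dienoyl-CoA reductase, was at 135, 127 and 117 CPM in the wild type and 43.8, 44.0 and 61.2 CPM in the knockout, a log2 change of -1.35 ± 0.15 (adjusted p = 0.000899). Eci1, a mitochondrial enoyl-CoA isomerase, was at 47.3, 44.7 and 46.1 CPM in the wild type and 27.0, 22.9 and 25.3 CPM in the knockout, a log2 change of -0.87 ± 0.11 (adjusted p = 0.00118). In each of the 3, the lowest wild type library was well above the highest knockout library, and each kept its call under every alternative run at the threshold of 0.05. Eci2, an isomerase found in peroxisomes and mitochondria, did not pass, at 24.8, 25.03 and 27.0 CPM in the wild type and 24.5, 19.2 and 21.9 CPM in the knockout (-0.23 ± 0.13, adjusted p = 0.194). Per kilobase of the exon union (2127 bp for Eci1 and 5540 bp for Eci2), Eci1 was 4.69 ± 0.255 times as abundant as Eci2 in wild type. In the knockout the ratio was 3.003 ± 0.125 (SD, n = 3 each, exact two-sided permutation p = 0.1, the smallest possible).

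Among the 3 peroxisomal enzymes only Ehhadh passed. Ehhadh, the bifunctional hydratase and dehydrogenase known as a PPAR alpha target in rodent liver, was at 76.0, 71.1 and 72.2 CPM in wild type 1 to 3 and 32.5, 31.4 and 38.6 CPM in knockouts 1 to 3. It was 2.14-fold lower in the knockout, a log2 change of -1.10 ± 0.11 (adjusted p = 0.000666), and the groups lay far apart. Hsd17b4, the other bifunctional enzyme, was at 104 to 137 CPM with overlapping groups (-0.11 ± 0.12). The peroxisomal thiolase Acaa1a was at 196, 98.9 and 105 CPM in the wild type and 82.8, 87.8 and 95.1 CPM in the knockout, so that wild type 1 stood far above the other libraries, and its log2 change of -0.59 ± 0.27 did not pass (adjusted p = 0.122). Its close copy Acaa1b, which is not a member, was at 0.112 to 0.815 CPM in the wild type and 2.12 to 7.18 CPM in the knockout and rose (3.49 ± 0.81, adjusted p = 0.0133). Reads shared between these copies may have been split in the counting, so both values are uncertain.

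All 3 genes that pass electrons from acyl-CoA dehydrogenases to the respiratory chain fell, to a summed 50.04% of the wild type level. Etfdh, the membrane-bound oxidoreductase that reduces ubiquinone, was at 163, 196 and 185 CPM in wild type 1 to 3 and 80.1, 71.1 and 84.3 CPM in knockouts 1 to 3, a log2 change of -1.21 ± 0.12 (adjusted p = 0.000578). Etfb, the beta subunit of the flavoprotein, was at 269, 215 and 210 CPM in the wild type and 102, 108 and 129 CPM in the knockout (-1.03 ± 0.14, adjusted p = 0.00181), and Etfa, the alpha subunit, at 226, 210 and 198 CPM in the wild type and 109, 119 and 133 CPM in the knockout (-0.81 ± 0.11, adjusted p = 0.00179). The groups did not overlap for any of the 3, and each call held under every alternative run at the threshold of 0.05. In Etfb, 53.0% of exon bases are shared with Gm45233 on the same strand, which itself had a mean of 1.08 counts per library.

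**Figure D2:**
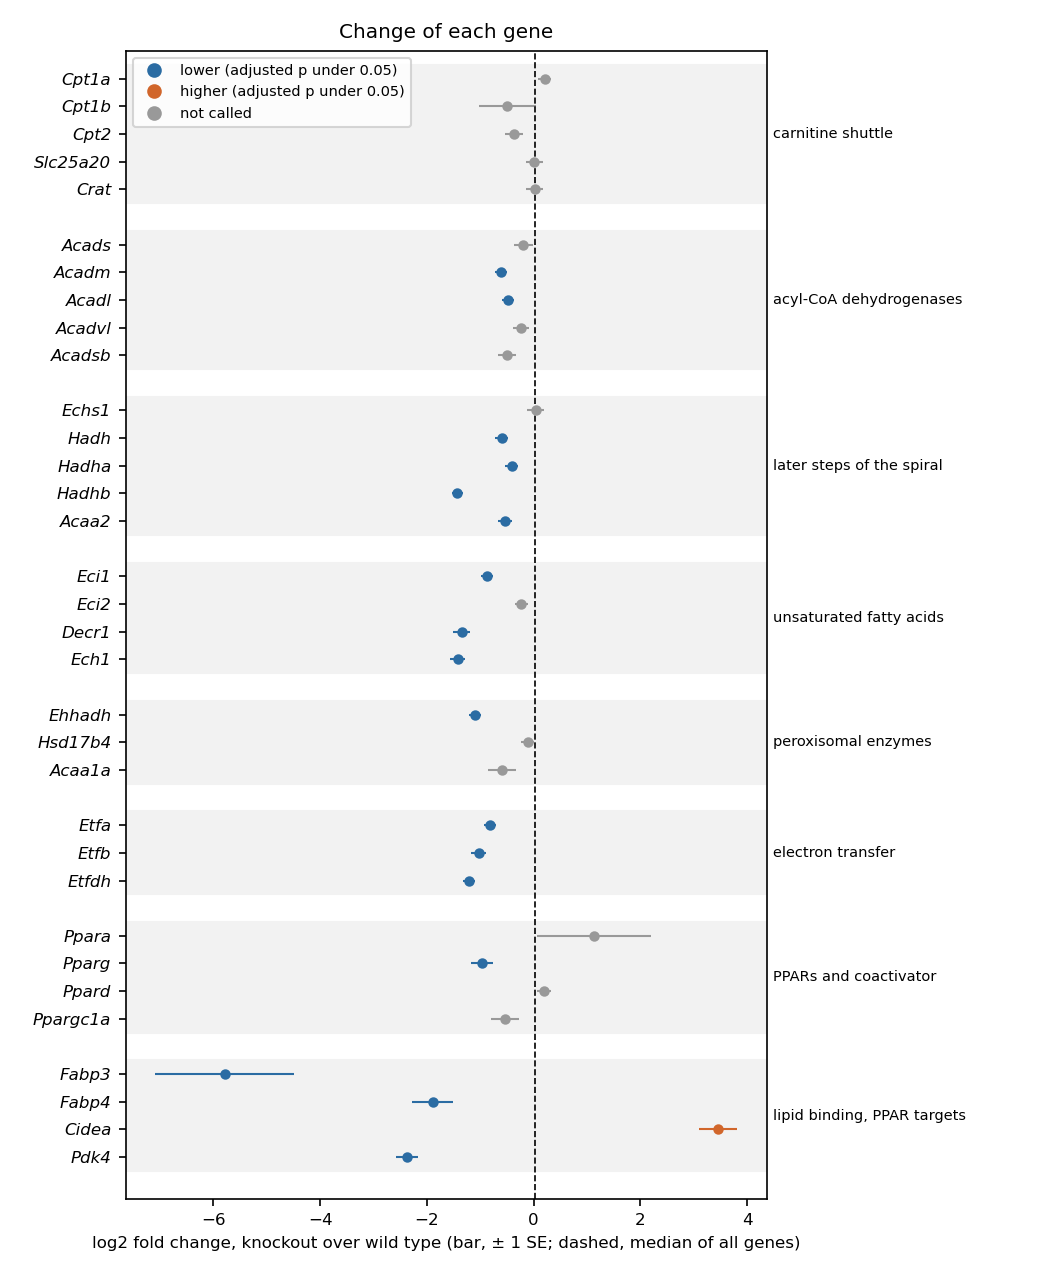
Log2 change of each member, knockout minus wild type, with its SE from edgeR's quasi-likelihood test, grouped by role, and marked by whether it passed the adjusted threshold of 0.05. The 17 members that fell lie left of 0, from -0.41 (Hadha) to -5.79 (Fabp3), Cidea lies at 3.45 and none of the 5 genes of the carnitine shuttle passed, with values from -0.49 (Cpt1b) to 0.21 (Cpt1a).

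Among the PPARs, Pparg was the most abundant and fell, while the other receptors did not pass. It was at 331, 265 and 184 CPM in wild type 1 to 3 and 127, 133 and 138 CPM in knockouts 1 to 3, so that wild type varied widely and all of it lay above the knockout. The log2 change was -0.97 ± 0.20 (adjusted p = 0.00878), and it was lost with total counts (-0.55, adjusted p = 0.0534). Ppard, the widely expressed receptor PPAR delta, was at 74.98, 56.1 and 57.0 CPM in the wild type and 70.1, 73.9 and 70.5 CPM in the knockout (0.19 ± 0.13, adjusted p = 0.287). It rose without wild type 1 (0.33, adjusted p = 0.0253), without both libraries numbered 1 (0.33, adjusted p = 0.0249) and with total counts (0.61, adjusted p = 0.00743). Per kilobase, Pparg was 11.2, 11.99 and 8.21 times as abundant as Ppard in wild type 1 to 3 and 4.59, 4.56 and 4.99 times in knockouts 1 to 3 (exact two-sided permutation p = 0.1, the smallest possible).

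Ppara, the receptor most closely tied to fatty acid oxidation, was near the detection limit. It had 0 counts in wild type 1, which allow up to 0.163 CPM (3 counts), and 0.675 and 0.986 CPM in wild type 2 and 3, against 0.382, 1.04 and 2.22 CPM in the knockout. No difference was detectable at this depth (1.13 ± 1.07, adjusted p = 0.434). Ppargc1a, the coactivator of PPARs and of mitochondrial genes, was at 9.62, 11.5 and 12.2 CPM in the wild type and 5.10, 8.06 and 9.73 CPM in the knockout. Its groups overlapped by a small margin, and the log2 change of -0.54 ± 0.26 did not pass (adjusted p = 0.134).

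All 4 lipid-binding and target genes passed, 3 lower and 1 higher, with larger changes than the enzymes. Pdk4, a kinase that shuts off pyruvate dehydrogenase and is induced by PPARs in fasting muscle and liver, was at 44.1, 39.0 and 44.3 CPM in wild type 1 to 3 and 5.78, 9.89 and 9.03 CPM in knockouts 1 to 3. It was 5.16-fold lower in the knockout (-2.37 ± 0.21, adjusted p = 0.000466). Cidea, a lipid droplet protein best known in brown fat, was at 1.36, 2.14 and 1.28 CPM in the wild type and 25.7, 12.4 and 14.3 CPM in the knockout, 11.0-fold higher (3.45 ± 0.36, adjusted p = 0.000721). For Pdk4 and Cidea the groups did not overlap, knockout 1 being the highest for Cidea and the lowest for Pdk4, and both calls held under every alternative run at the threshold of 0.05.

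The fatty acid-binding proteins fell too, but with wild type 1 far below the other wild type libraries. Fabp4, of adipocytes, macrophages and capillary endothelium, was at 26.2, 71.2 and 68.7 CPM in wild type 1 to 3 and 16.9, 14.1 and 13.8 CPM in knockouts 1 to 3 (-1.89 ± 0.38, adjusted p = 0.0108). Fabp3, of heart and muscle, was at 1.14, 20.8 and 16.5 CPM in the wild type and 0.0425, 0.416 and 0.218 CPM in the knockout, where it had 1, 10 and 5 counts. Its log2 change was -5.79 ± 1.30 (adjusted p = 0.0188), and the call was lost when any 1 of the 3 knockout libraries was left out (adjusted p = 0.0570 to 0.0731), with no filter on low counts (adjusted p = 0.0537) and with limma-voom (adjusted p = 0.203). About 10% of its exon bases (9.84%) are shared with Zcchc17 on the opposite strand.

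Marker lists of other cell types differed: some fell in part, some rose in part and in some no gene passed. Of 9 parietal cell markers tested 7 fell, Ckb did not pass and Slc4a2, an anion exchanger of other epithelia too, rose (1.24 ± 0.17, adjusted p = 0.00162). Their levels summed to 964 to 1137 CPM in wild type and 720 to 766 CPM in the knockout, of which Ezr, not particular to these cells, made up most (732 to 888 and 589 to 643 CPM). The proton pump subunit Atp4b, which defines parietal cells, was at 6.41, 143 and 140 CPM in wild type 1 to 3 and 0.127, 0.374 and 2.36 CPM in knockouts 1 to 3, and Atp4a at 7.28, 84.8 and 123 CPM and 0.637, 0.706 and 2.49 CPM. Kcne2 was at 0 in knockout 2, and Slc26a7 in wild type 1 and knockout 1. Only 3 markers fell without wild type 2 or wild type 3, 4 without knockout 1 or knockout 2, and 2 with limma-voom. Wild type 1 thus held far less of the pump genes than the other wild type libraries, as it did of Fabp3 and Fabp4. Of the 33 members, 10 were lowest among wild type in wild type 1, 7 in wild type 2 and 16 in wild type 3. The 10 included Hadhb (407 against 428 and 426 CPM), Acadm (94.6 against 104 and 101 CPM) and Etfdh (163 against 196 and 185 CPM). Others were highest in wild type 1, such as Pparg (331 against 265 and 184 CPM) and Acaa1a (196 against 98.9 and 105 CPM). The share of all genes lowest in wild type 1 was not computed. Without both libraries numbered 1, 18 members fell (54.5%, against 24.3% of all genes) and 2 rose (Cidea and Ppard). The members' median less that of all genes was then -0.45. Without wild type 1 alone the counts were also 18 and 2, with 20.4% of all genes lower. The part of parietal cells in the changes was not tested.

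Adipocyte markers were low, and none of 8 tested passed, with sums of 89.4 to 131 CPM in the wild type and 66.4 to 85.6 CPM in the knockout, with Pnpla2, which many cells express, the most abundant (35.6 to 49.5 CPM). Without both libraries numbered 1, however, 5 of the 12 listed fell, and without wild type 1 alone 3 fell. These counts include markers tested only in those fits. Of the 8, Adipoq, Plin4 and Car3 fell without both libraries numbered 1, and Plin4 and Car3 without wild type 1. Adipoq, which defines adipocytes, was at 0.109, 10.8 and 4.99 CPM in wild type 1 to 3 and 0, 0.748 and 0 CPM in knockouts 1 to 3. Lep was at 0 in wild type 1 and in every knockout library, and Ucp1, the defining gene of brown fat, had 1 count in wild type 1 and 0 in the other 5 libraries. Ucp1 was thus at or near 0 in both genotypes, and the source of the rise of Cidea was not tested. Muscle markers summed to 170, 1183 and 2556 CPM in the wild type and 52.5, 840 and 563 CPM in the knockout. Tagln and Myh11 were the most abundant, Myh6 was at 0 in every library and none of 8 passed (2 lower without both libraries numbered 1). With the replicate number as a block, Ckm, Myh11, Cnn1 and Tagln fell (adjusted p = 0.0237 to 0.0494). So did the adipocyte markers Adipoq and Car3 (adjusted p = 0.0123 and 0.0429), while the endothelial Kdr and the macrophage C1qa rose (adjusted p = 0.0126 and 0.0365). Endothelial markers rose in 5 of 10 (2 without wild type 2, 3 without knockout 2 and 9 without both libraries numbered 1), from 18.7 to 36.5 CPM in wild type to 69.0 to 101 CPM in the knockout, led by Pecam1, with Cdh5 at 0 in wild type 1. Macrophage markers summed to 12.3 to 94.6 CPM and 105 to 135 CPM, led by Lyz2, with none of 10 passing (3 higher without wild type 1 and 4 without both libraries numbered 1). Enterocyte markers rose in 5 of 10 (2 without wild type 2, 3 without wild type 1 or 3) and 1, Fabp2, fell (0 without any 1 of wild type 1 to 3 or knockout 2). Without knockout 1, 10 of the 13 listed rose, a count that includes markers tested only without that library. Their sums were 795 to 919 CPM in wild type and 373 to 2384 CPM in the knockout, led by Alpi and Fabp2, with Mep1a at 0 in wild type. The part of these cells in the members' changes was not tested.

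**Figure D3:**
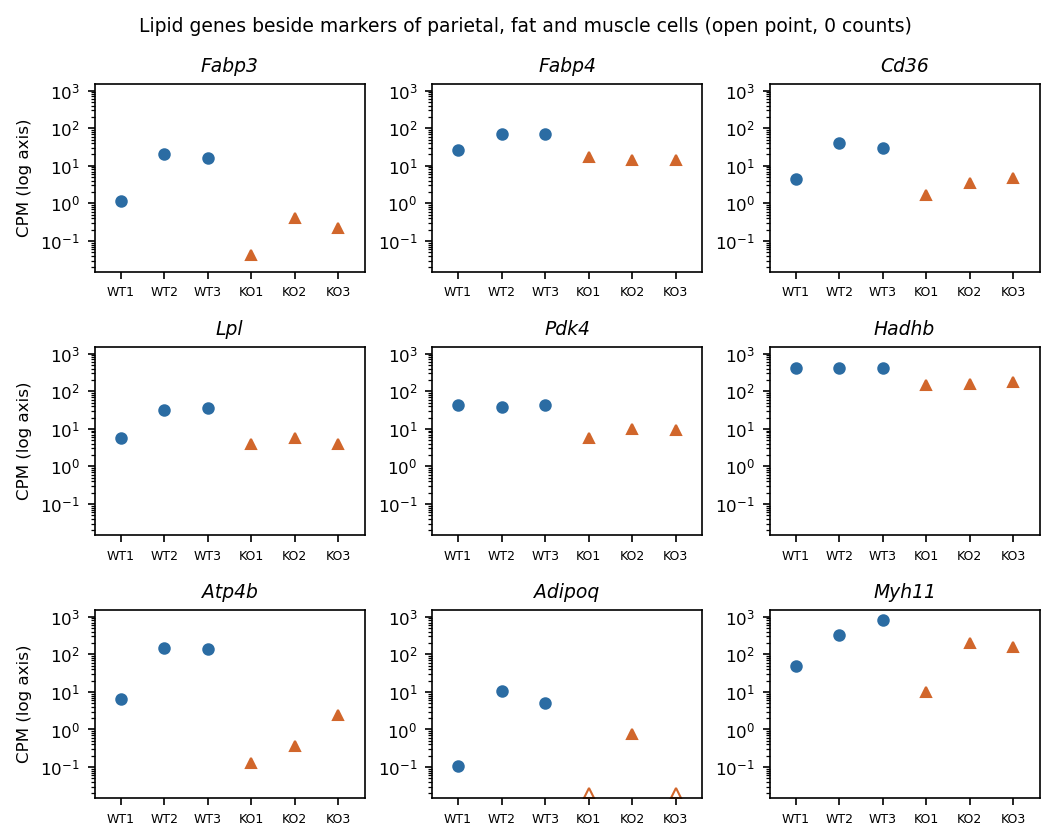
Levels in CPM on a log axis in each library of Fabp3, Fabp4, Pdk4 and Hadhb, of the PPAR targets Cd36 and Lpl, and of Atp4b (parietal cells), Adipoq (adipocytes) and Myh11 (smooth muscle). Open points are at 0 counts. Wild type 1 (WT1) is low for Fabp3, Fabp4, Cd36, Lpl, Atp4b and Adipoq but not for Hadhb or Pdk4. Myh11 belongs to the muscle markers, whose sum was also lowest there among wild type (170 against 1183 and 2556 CPM).

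Further genes of the pathway gave a mixed picture. Of 30 other fatty acid oxidation genes, all tested, 11 fell and 2 rose (36.7% and 6.67%), with a median log2 change of -0.30. Acsl3, which activates long-chain fatty acids, was at 300.2, 266 and 280 CPM in wild type 1 to 3 and 114, 133 and 132 CPM in knockouts 1 to 3 (-1.16 ± 0.11, adjusted p = 0.000555). Acacb, the acetyl-CoA carboxylase whose product inhibits carnitine palmitoyltransferase, was at 46.9, 40.8 and 46.3 CPM in the wild type and 5.14, 9.39 and 12.8 CPM in the knockout (-2.29 ± 0.31, adjusted p = 0.00203). The peroxisomal genes Acox2, a branched-chain acyl-CoA oxidase, and Scp2, a sterol carrier and thiolase, fell by 1.81 ± 0.25 and 0.98 ± 0.14 on the log2 scale (adjusted p = 0.00182 and 0.00222). The 2 that rose were Acaa1b and Acsl1, another long-chain acyl-CoA synthetase (1.03 ± 0.16, adjusted p = 0.00294). With total counts 7 of the 30 fell and 7 rose. The call of Acaa1b was lost without wild type 2 (adjusted p = 0.0523) and without wild type 3 (adjusted p = 0.0506).

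Of the 8 ketone body genes 3 fell and 2 rose. Among those that fell, the thiolase Acat1 fell by 1.05 ± 0.13 on the log2 scale (adjusted p = 0.00134) and the monocarboxylate transporter Slc16a1 by 0.79 ± 0.11 (adjusted p = 0.00169). Bdh1, the mitochondrial hydroxybutyrate dehydrogenase, rose by 0.34 ± 0.10 (adjusted p = 0.0296) and Bdh2 by 2.22 ± 0.46 (adjusted p = 0.00878). Oxct1, for ketone use (-0.55 ± 0.36, adjusted p = 0.274), and the transporter Slc16a6 (0.16 ± 0.13, adjusted p = 0.375) did not pass. The call of Bdh1 was lost when any 1 library other than wild type 1 was left out (adjusted p = 0.0578 to 0.0983) and with the GC trend removed (adjusted p = 0.159).

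Other PPAR targets did not fall together. Of 18, 13 were tested, 4 rose and 3 fell (30.8% and 23.1%), with a median log2 change of 0.49. Plin2, which coats lipid droplets, was at 19.1, 21.3 and 19.9 CPM in wild type 1 to 3 and 64.0, 51.5 and 43.7 CPM in knockouts 1 to 3 (1.40 ± 0.16, adjusted p = 0.000854). Angptl4, an inhibitor of lipoprotein lipase, was at 2.39, 3.99 and 1.86 CPM in the wild type and 15.5, 13.1 and 8.46 CPM in the knockout (2.17 ± 0.36, adjusted p = 0.00361). Both are induced by PPARs in other tissues, as is Pdk4, which fell here. The pantetheinase Vnn1 rose by 4.94 ± 0.82 on the log2 scale (adjusted p = 0.00822) and the fatty acid transporter Slc27a1 by 0.64 ± 0.18 (adjusted p = 0.0258). The 3 that fell, named after their values were seen, were the lipase Lpl (-2.42 ± 0.68, adjusted p = 0.0364), the uncoupling protein Ucp2 (-0.60 ± 0.19, adjusted p = 0.0412) and the fatty acid translocase Cd36 (-2.93 ± 0.88, adjusted p = 0.0479). Cd36 and Lpl, like Fabp3 and Fabp4, were far lower in wild type 1 (4.56 and 5.76 CPM) than in wild type 2 (40.8 and 31.3 CPM) and wild type 3 (29.5 and 35.1 CPM). Leaving out any 1 of the 3 knockout libraries ended the calls of Lpl, Ucp2, Cd36 and Slc27a1 (adjusted p = 0.0618 to 0.139). Without both libraries numbered 1, 7 of all 18 listed genes were higher.

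Of 18 PPAR partners and related regulators, 16 were tested, 3 fell and 2 rose, with a median log2 change of 0.06. The retinoid X receptors Rxra (0.07 ± 0.12) and Rxrb (0.14 ± 0.14), the related receptor Esrra (0.21 ± 0.20) and the coactivator Ppargc1b (0.16 ± 0.25) did not pass. Esrrg, a nuclear receptor of oxidative tissues that is also on the parietal list, was at 1.74, 8.27 and 16.5 CPM in wild type 1 to 3 and 0.127, 0.208 and 0.174 CPM in knockouts 1 to 3 (-5.65 ± 0.91, adjusted p = 0.00400). The deacetylase Sirt1 fell by 0.65 ± 0.16 (adjusted p = 0.0178) and the ETS factor Gabpa by 0.57 ± 0.15 (adjusted p = 0.0211). Prdm16, a regulator of brown fat, rose by 0.96 ± 0.15 (adjusted p = 0.00285). Ncor1, Med1, Nrip1, Lpin1, Sirt3, Nrf1 and Tfam did not pass, with estimates from -0.34 (Sirt3) to 0.20 (Nrf1). With the GC trend removed the calls of Sirt1 (adjusted p = 0.0798) and Gabpa (adjusted p = 0.378) were lost, and with limma-voom that of Esrrg (adjusted p = 0.0845). Esrra rose without wild type 1 (0.47, adjusted p = 0.0116), and with total counts 10 genes of this list rose and 1 fell.

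Nuclear genes of the respiratory chain and citrate cycle, which use the products of fatty acid oxidation, were lower in part. Of 34, 14 fell and 0 rose (41.2% lower), with a median log2 change of -0.38. Their summed level in the knockout was 75.2% of that in wild type, close to the 74.9% of all genes tested. With total counts 9 fell and 8 rose. Ndufb5, a complex I subunit, was at 170, 182 and 172 CPM in wild type 1 to 3 and 64.2, 70.6 and 86.1 CPM in knockouts 1 to 3 (-1.25 ± 0.13, adjusted p = 0.000671). Cox7a2 and Cox6c of cytochrome c oxidase fell by 1.47 ± 0.16 and 0.97 ± 0.11 on the log2 scale (adjusted p = 0.000725 and 0.000826), and Atp5c1 of the ATP synthase by 1.13 ± 0.12 (adjusted p = 0.000779). Other subunits of the same complexes did not pass, such as Atp5b, at 966 to 1170 CPM in the wild type and 1073 to 1151 CPM in the knockout (0.08 ± 0.12), named after its values were seen.

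**Figure D4:**
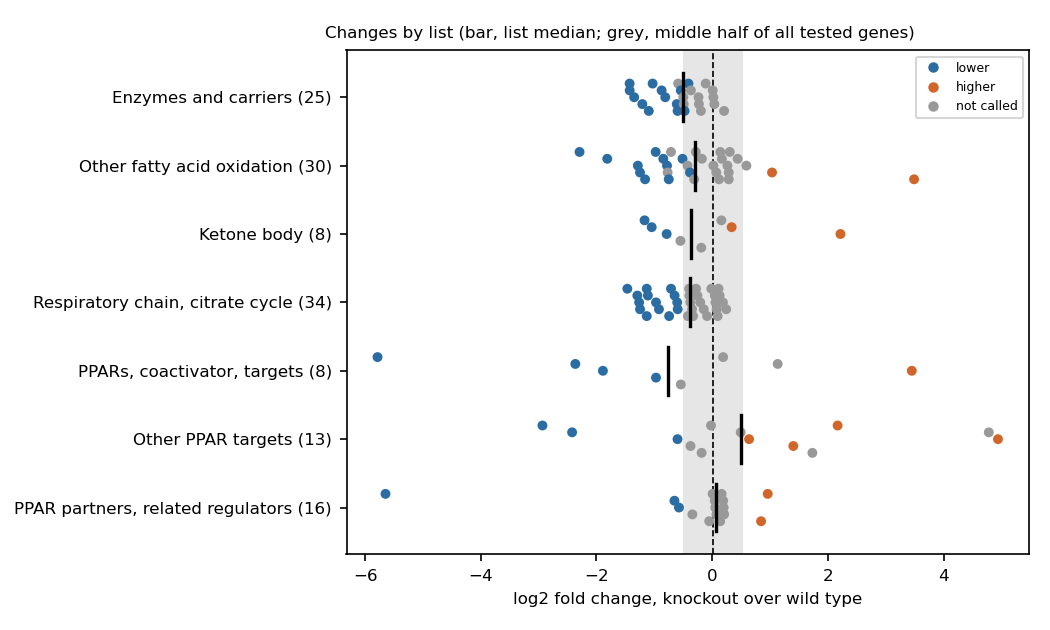
Log2 change, knockout minus wild type, of each tested gene in 7 lists, 1 point per gene coloured by its call, with a bar at the list's median and a grey band over the interquartile range of all tested genes. The medians are -0.50 for the 25 enzymes and carriers, -0.76 for the 8 PPARs, coactivator and targets, -0.30 for 30 other fatty acid oxidation genes, 0.49 for 13 other PPAR targets and -0.38 for 34 respiratory chain and citrate cycle genes.

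GC content of the transcripts moved with the change across all genes as well as across the members (Pearson r across genes 0.19 in each, n = 33 members and 13988 genes with a GC value, with genes not independent replicates). With the tested genes split by GC into 3 parts of equal size, in the part with the lowest GC 7 of 9 members fell (77.8%, against 34.3% of all genes there). In the middle part 6 of 14 fell (42.9%, against 15.9%), and in the part with the highest GC 4 of 10 fell (40.0%, against 7.31%). Hadhb was at the low end, with 39.1% GC, and Ech1, which fell by the same log2 amount, was at 54.4%. With the trend over GC removed in each library, 20 members fell and 1 rose, and the median log2 change was -0.57. The share lower was then 60.6% of members and 16.6% of all genes. Cpt2, Acads, Acadvl and Acaa1a then passed (adjusted p = 0.0233, 0.0142, 0.0209 and 0.0206), and Acadl did not.

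**Figure D5:**
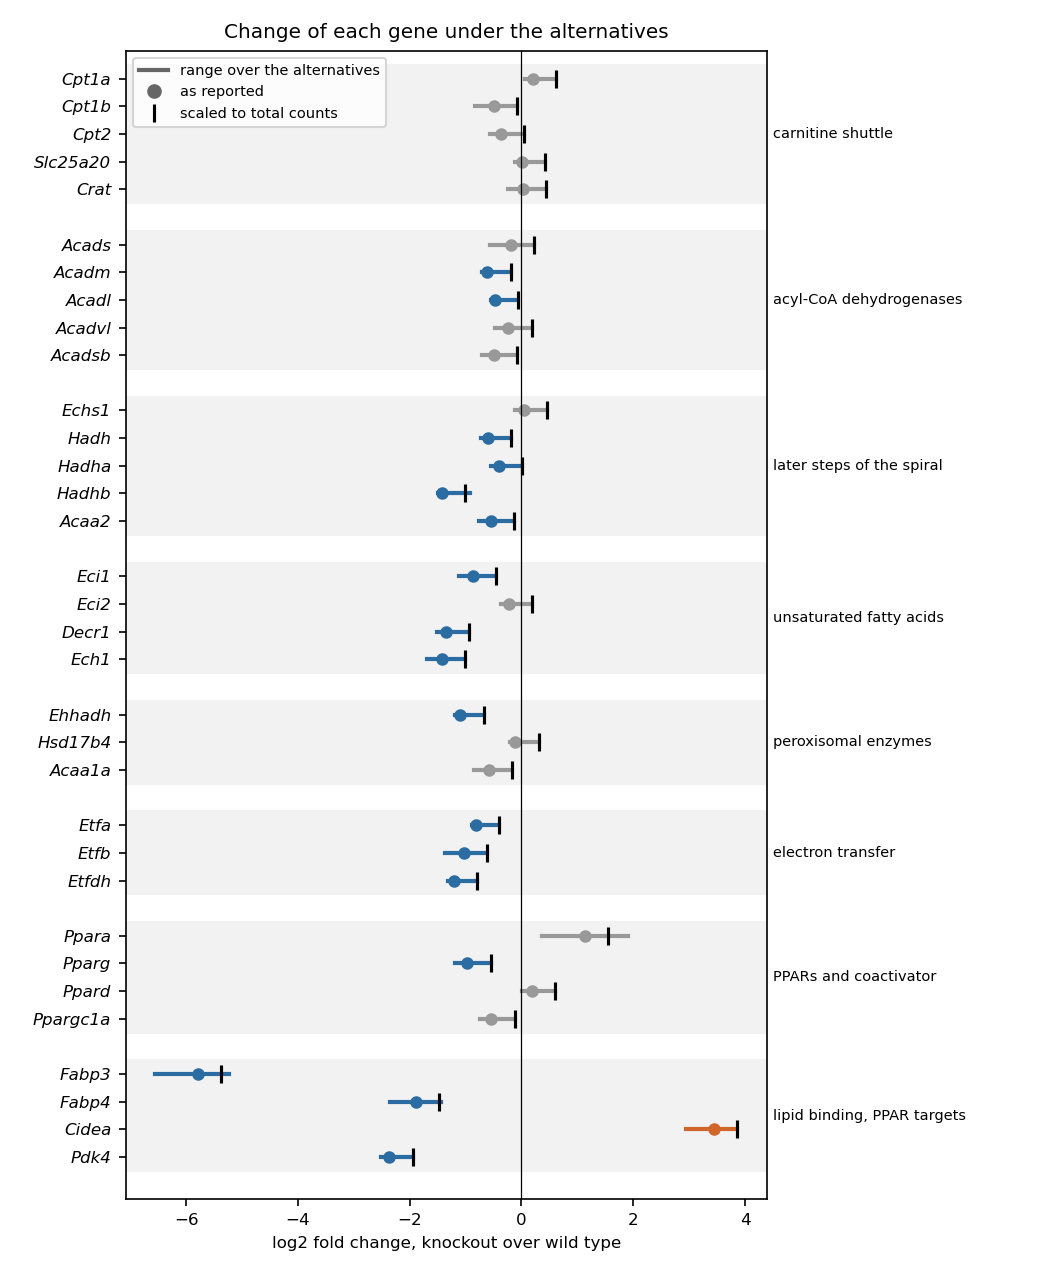
Log2 change of each member, knockout minus wild type, with the value reported here as a point, the range over the alternatives as a line and the value with total counts as a black tick. The ticks lie to the right of the points in every row, and 11 of the 18 members that passed kept their call at the threshold of 0.05 in all of them.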

How the data were processed

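Bulk RNA-seq libraries of antral mucosa, 3 wild type and 3 Muc6 knockout, were made with a kit that selects polyadenylated RNA and marks strand, per the labels' protocols. Values per gene are estimated counts as the authors deposited them, not scaled to depth. The unit was read from the values, of which 28.8% to 34.3% (above 0, per library) were not whole. The build was mm10 per the submitters' processing notes. The aligner, counting program and strand setting were not given in the sources used here, so reads of overlapping genes or close copies may be shared.

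Counts were rounded. Of 34866 gene IDs, 34652 were matched to GENCODE M21 symbols and 214 were not. Genes passing filterByExpr (14017) were scaled with TMM factors and tested with robust quasi-likelihood fits in edgeR 4.0.16 (R 4.3.3), with Benjamini-Hochberg adjustment over all of them at 0.05. The common coefficient of biological variation was 0.283. CPM is per 1e+06 TMM-scaled counts, and levels per kb use the union of a gene's exons. The SE is the log2 change over the root of its F statistic. Intervals and floors cover counting error only.

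The members and lists were chosen with earlier results of these data known. Named genes are all members, in each pathway list the 4 that passed with the lowest adjusted p, the ketone body genes and PPAR partners in full (a few of these are counted but not reported here), and the most abundant or absent markers. Alternatives were other scalings (RLE, upper quartile, total counts, without the 20 most abundant genes), no filter or 1 CPM in 3 libraries, DESeq2 1.42.0, limma-voom (limma 3.58.1), the replicate number as a block, libraries left out, a GC trend removed and thresholds of 0.01 and 0.1. The procedure was tested on simulated counts. Cblif, a parietal marker, was not matched and was not analysed here.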

Additional observations from a re-analysis of the deposited data

How the results depend on the processing

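Of the 18 members that passed, 11 kept their call in every setting at the threshold of 0.05 (Hadhb, Eci1, Decr1, Ech1, Ehhadh, Etfa, Etfb, Etfdh, Fabp4, Cidea and Pdk4), and 8 of the 15 others passed in at least 1 setting. Total counts as library sizes gave 5730 genes higher and 1091 lower (84.0% of calls higher, against 50.1%) and 3 members higher and 11 lower, with the median of all genes moved to 0.43 by construction. Among members and genes of the other lists called in either scaling, the estimates of Hadha (0.0070), Hsd17b10 (0.033), Ncor1 (0.36) and Ezr (0.057) then changed sign. So did those of the uncalled members Cpt2 (0.05), Acads (0.22), Acadvl (0.18), Eci2 (0.19) and Hsd17b4 (0.30). A false discovery rate of 0.01 gave 1257 genes higher and 1408 lower. Leaving out 1 library gave 1600 to 3045 genes higher, 1721 to 2964 lower, 1 to 2 members higher and 13 to 18 lower. The fewest were without wild type 2 (1600 and 1742 genes) and without knockout 2 (1721 lower), and the 2 members higher were without wild type 1. Leaving out both libraries numbered 1 gave 2 members higher. Deviations of same-numbered libraries correlated at 0.243, 0.0889 and 0.189, and those of wild type 3 and knockout 2 at 0.261. Not every library thus correlated best with its own number. These values do not settle whether the replicate numbers pair the samples. With the replicate block there were 2572 genes higher and 2497 lower, 1 member higher and 16 lower (Hadha was lost, adjusted p = 0.0712), and with the block and the GC trend removed 2167 and 2094 genes, 1 member higher and 19 lower. The causes of these shifts were not tested. Depth limited Ppara and Cpt1b, with 0 to 51 and 9 to 27 counts per library.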
